A study of Mus musculus with 24 samples.

Results

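Mitochondrial ribosomal proteins are made from nuclear genes, imported into mitochondria and built into the ribosome that works there. Of 46981 mouse gene identifiers in the deposited table, 78 mapped in GENCODE release M21 (GRCm38) to a protein-coding symbol of the form Mrpl or Mrps followed by a number. By symbol, 49 belong to the large subunit (Mrpl) and 29 to the small subunit (Mrps). The genes lie on 17 chromosomes, and 42 of the 78 overlap another annotated gene, 36 of them a gene on the opposite strand. Whether counting used the strand is not given in the sources used here, so the reads of such pairs may not be told apart.

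RNA was sequenced from mouse CD4 T cells in 24 libraries, which form 8 groups of 3. In the Acly cohort the knockout (KO) cells carried CD4-Cre and Aclyfl/fl, a floxed gene for ATP citrate lyase, the enzyme that makes acetyl-CoA from citrate outside mitochondria. In the Pdha1 cohort the KO cells carried Pdha1fl/fl and CD4CreERT2, a Cre that tamoxifen switches on. Pdha1 gives the E1 alpha chain of the pyruvate dehydrogenase complex, the source of acetyl-CoA from pyruvate within mitochondria. Each cohort had KO activated, wild-type (WT) activated, KO resting and WT resting cells, with activation through CD3 and CD28 for 24 h and no treatment at rest, and all cells were kept in the same culture medium. WT cells are labelled without a Cre or a floxed allele, and the labels used here give no age, strain or schedule for the induction of CreERT2. Cre under the Cd4 promoter is known to act from the thymus on. Nothing says whether the 3 libraries of a group came from separate mice, so p-values measure only the spread between these samples, which may be technical.

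The mitochondrial ribosome translates only the few proteins that the mitochondrial genome encodes, all of them subunits of the respiratory chain and the ATP synthase. Its RNA comes from the mitochondrial genome, and all of its proteins come from the nucleus. The small subunit binds the mRNA and holds the decoding centre. The large subunit joins the amino acids and passes the chain through an exit tunnel toward the inner membrane. T cells that are activated through their receptor are known to grow, to make new ribosomes and to enlarge their mitochondria. The symbols do not follow the structure in full: in mammalian mitochondrial ribosomes Mrps18a and Mrps30 sit in the large subunit, and Mrps36 is a component of the 2-oxoglutarate dehydrogenase complex. By structure 51 members then count as large and 26 as small.

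Promoter sequences of 69 members were found in the RefSeq table on GRCm38.p6, as 75 windows of 300 bases, from 250 before to 50 after the annotated start. Sequences are shown for Mrps27, which had the largest rise on activation in WT cells of the Acly cohort, for Mrpl12, a stalk protein, and for the 3 Mrps18 paralogs, which share an ancestor and differed in how they changed. Capitals mark matches, on either strand, to 4 motifs known from promoters of mitochondrial genes or of growth genes: the palindrome of NRF1, CCGGAAG (GABPA), AAGATGGC (YY1) and CACGTG (the E-box bound by Myc).
Mrps27, chr13:99344536-99344835, plus strand: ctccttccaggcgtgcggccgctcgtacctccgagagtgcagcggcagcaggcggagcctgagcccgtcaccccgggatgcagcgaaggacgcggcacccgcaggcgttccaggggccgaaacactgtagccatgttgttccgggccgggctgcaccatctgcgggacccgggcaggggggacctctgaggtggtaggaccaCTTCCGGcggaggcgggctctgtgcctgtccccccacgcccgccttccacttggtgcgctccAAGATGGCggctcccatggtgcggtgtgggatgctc
Mrpl12, chr11:120484387-120484686, plus strand: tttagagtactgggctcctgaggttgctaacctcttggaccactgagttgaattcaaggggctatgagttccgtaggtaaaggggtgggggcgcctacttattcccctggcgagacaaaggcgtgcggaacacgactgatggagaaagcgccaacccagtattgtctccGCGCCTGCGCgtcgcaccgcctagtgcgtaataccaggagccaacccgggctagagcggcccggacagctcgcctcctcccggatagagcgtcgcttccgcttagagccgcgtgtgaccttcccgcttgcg
Mrps18a, chr17:46110754-46111053, plus strand: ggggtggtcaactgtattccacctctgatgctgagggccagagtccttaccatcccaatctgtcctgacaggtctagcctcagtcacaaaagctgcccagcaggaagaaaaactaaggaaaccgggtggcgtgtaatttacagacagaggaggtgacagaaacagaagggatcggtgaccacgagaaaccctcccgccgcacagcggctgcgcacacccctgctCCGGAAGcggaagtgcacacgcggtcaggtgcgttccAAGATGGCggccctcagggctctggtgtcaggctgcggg
Mrps18b, chr17:35916391-35916690, minus strand: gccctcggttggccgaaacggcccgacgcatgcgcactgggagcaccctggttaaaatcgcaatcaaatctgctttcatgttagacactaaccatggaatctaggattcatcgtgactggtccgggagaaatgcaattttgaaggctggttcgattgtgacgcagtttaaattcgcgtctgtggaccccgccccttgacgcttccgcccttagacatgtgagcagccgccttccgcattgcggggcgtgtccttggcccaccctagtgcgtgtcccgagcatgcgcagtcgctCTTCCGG
Mrps18c, chr5:100798509-100798808, plus strand: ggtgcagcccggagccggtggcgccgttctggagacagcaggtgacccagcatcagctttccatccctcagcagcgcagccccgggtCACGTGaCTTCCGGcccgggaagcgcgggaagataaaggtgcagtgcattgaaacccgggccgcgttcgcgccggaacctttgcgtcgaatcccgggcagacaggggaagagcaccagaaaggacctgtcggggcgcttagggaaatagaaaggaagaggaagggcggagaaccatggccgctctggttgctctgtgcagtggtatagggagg

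The window of Mrps27 held a GABPA and a YY1 match, and so did that of Mrps18a. The window of Mrpl12 held an NRF1 match, that of Mrps18b a GABPA match, and that of Mrps18c an E-box followed by a GABPA match. Over the 75 windows of members, GABPA letters stood in 34.7%, against 12.1% of 19577 windows of all protein-coding genes. YY1 letters stood in 16% of member windows and 3.17% of all, NRF1 letters in 17.3% and 6.79%, and the E-box in 9.33% and 8.11%. No match of one motif overlapped a match of another in the windows of members. These are matches of letters, with no test, and say nothing on whether a factor was bound.

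The deposited values are RPM, reads scaled to the same total of 1000000 in each library, and every one of them came out as a whole count once the scaling was undone. Recovered counts ran from 388902 to 1087675 per library, so 1 count was worth 0.677 to 2.28 RPM, and a count of 0 allows up to 3 counts, or 2.03 to 6.83 RPM, from counting error alone. All 78 members passed the filter on low values, 1 RPM or more in 3 or more libraries, in both cohorts. The T cell markers Cd3d, Cd3e, Cd3g, Cd4, Lck, Cd5 and Cd28 were detected in every group, with sums of 108 to 1645 RPM. Sums of erythroid markers (the globins and Alas2) were 20.3 to 1193 RPM in the Acly cohort and 595 to 32756 RPM in the Pdha1 cohort. Olfactory and vomeronasal receptor genes (1893 genes) have no known role in T cells; they summed to 30239 to 110185 RPM across the Acly cohort and served as a measure of background. Acly was at 11.3, 10.6 and 15.0 RPM in KO activated cells, against 104, 111 and 109 RPM in WT activated cells of its cohort, while at rest KO and WT values overlapped, and Pdha1 values overlapped between KO and WT cells of the Pdha1 cohort in both states.

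Some Pdha1 libraries went against their labels in background and in member levels. The library labelled WT activated 3 held 106049 RPM of receptor genes and a median of 4.82 RPM over the 78 members, close to the 4.18 to 6.01 RPM of WT resting cells. The library labelled KO resting 3 held 66696 RPM of receptor genes and a member median of 20.2 RPM, against 5.49 and 5.06 RPM in the other 2 KO resting libraries. The library labelled WT activated 1 had the fewest counts of all 24 and the lowest background, 26547 RPM. Medians and calls of that cohort are therefore given with all libraries, without the first 2 of these, and without all 3. This choice was made after seeing the data, member levels included.

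**Figure D1:**
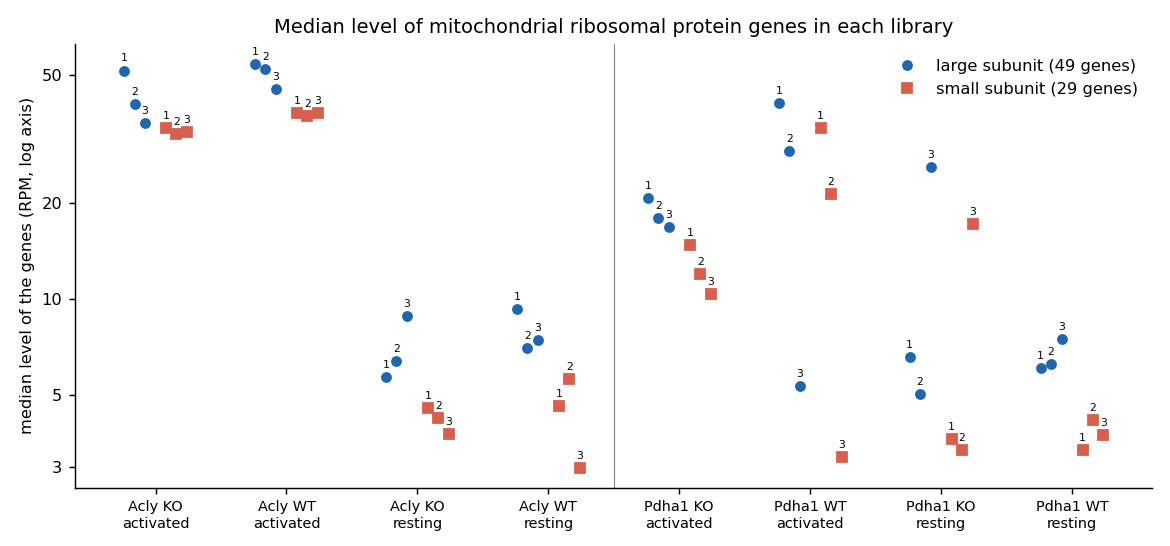
Median level of the large and small subunit genes in each library (RPM, log axis), by group, with the replicate number above each point. In the Acly cohort activated libraries lay at 32.8 to 54.2 RPM and resting ones at 2.98 to 9.28 RPM; in the Pdha1 cohort WT activated 3 and KO resting 3 stood with the libraries of the other state.

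Activation raised most members in both genotypes of the Acly cohort. In KO cells 65 of 78 members rose and 1 fell, and in WT cells 67 rose and 1 fell (limma on log2(RPM + 0.5), Benjamini-Hochberg adjusted p under 0.05 over 31311 genes). Among all genes tested, 20.7% rose and 26.7% fell in KO cells, and 21.4% rose and 23.8% fell in WT cells. The median change of the members was 2.93 in KO and 2.80 in WT cells on the log2 scale, while over all genes it was -0.67 and -0.61. The values of all 3 activated libraries lay above those of all 3 resting libraries for 69 members in KO and 69 in WT cells, against 22.6% and 23.1% of all genes. In bulk samples a change in the share of a cell type and a change in RNA per cell cannot be told apart.

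Both subunits rose together. Of the large subunit genes 42 of 49 rose in KO and 43 in WT cells, with median changes of 2.83 and 2.66, and Mrpl48 fell in both. Of the small subunit genes 23 of 29 rose in KO and 24 in WT cells, with median changes of 3.05 and 2.83, and none was called lower. The large minus small difference of these medians, -0.22 in KO and -0.17 in WT cells, is a description with no test, and without WT resting 3 it turned to 0.13 in WT cells. Placing Mrps18a and Mrps30 in the large subunit and leaving Mrps36 out gave medians of 2.87 for large and 3.03 for small genes in KO cells, and of 2.46 and 2.85 in WT cells.

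Summed without Mrpl48, the large subunit genes reached 2366 ± 179 RPM in KO activated and 2810 ± 271 RPM in WT activated cells, against 618 ± 84.9 RPM in KO resting and 652 ± 63.0 RPM in WT resting cells (SD, n = 3 each). The small subunit genes reached 1126 ± 62.5 RPM in KO activated and 1244 ± 48.9 RPM in WT activated cells, against 301 ± 37.3 and 283 ± 34.0 RPM at rest. Activated sums were 3.83 times the resting ones for large and 3.74 times for small subunit genes in KO cells, and 4.31 and 4.39 times in WT cells. The ratio of the large to the small sum stayed between 1.80 and 2.55 in every one of the 24 libraries.

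What else moved with activation was measured beside these changes. Receptor genes summed to 31618 to 41180 RPM in KO activated and 30239 to 40501 RPM in WT activated cells, against 106687 to 110185 and 95847 to 106816 RPM in KO and WT resting cells. Of 1384 receptor genes tested, 782 fell and 4 rose in KO cells and 748 fell and 6 rose in WT cells, with median changes of -1.60 and -1.51. The 7 T cell markers, which lie outside the members, all rose, with median changes of 1.73 in KO and 1.81 in WT cells. Of 4 myeloid markers 2 fell in KO and 3 in WT cells (medians -0.49 and -1.19), and of 3 CD8 and NK cell markers tested none was called in KO and 1 fell in WT cells. No B cell or erythroid marker was called. The part of other cells in the members' values was not tested. With the background as a covariate no member was called by limma in either genotype, with 7 members in KO and 11 in WT cells higher at an unadjusted p under 0.05. Few genes of any kind were called in that fit. Of all 31311 genes it called 1 higher and 0 lower in KO cells, and 10 higher and 1 lower in WT cells. How many of all genes reached that unadjusted p is not given here. The members' median was then 2.08 in KO and 2.30 in WT cells and that of all genes 0.90 and 0.92, so that relative to all genes the members stood at 1.18 and 1.37, against 3.60 and 3.41 as reported. State and background cannot be told apart in this cohort, because their libraries split in the same way. Scaling in the manner of TMM moved the median of all genes to -0.27 in KO and -0.22 in WT cells, and 72 and 71 members rose, against 25.4% and 25.7% of all genes. Relative to all genes the members' median was 3.81 in KO and 3.56 in WT cells under this scaling. With edgeR 73 rose and 1 fell in KO cells (25.6% and 16.6% of all genes) and 71 and 1 in WT cells (25.6% and 14.6%), and with DESeq2 71 and 1 in KO (21.9% and 9.65%) and 71 and 1 in WT cells (21.3% and 9.94%). Under TMM-style scaling 66.1% of all calls in KO and 67.8% in WT cells were rises, against 43.7% and 47.4% as reported.

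**Figure D2:**
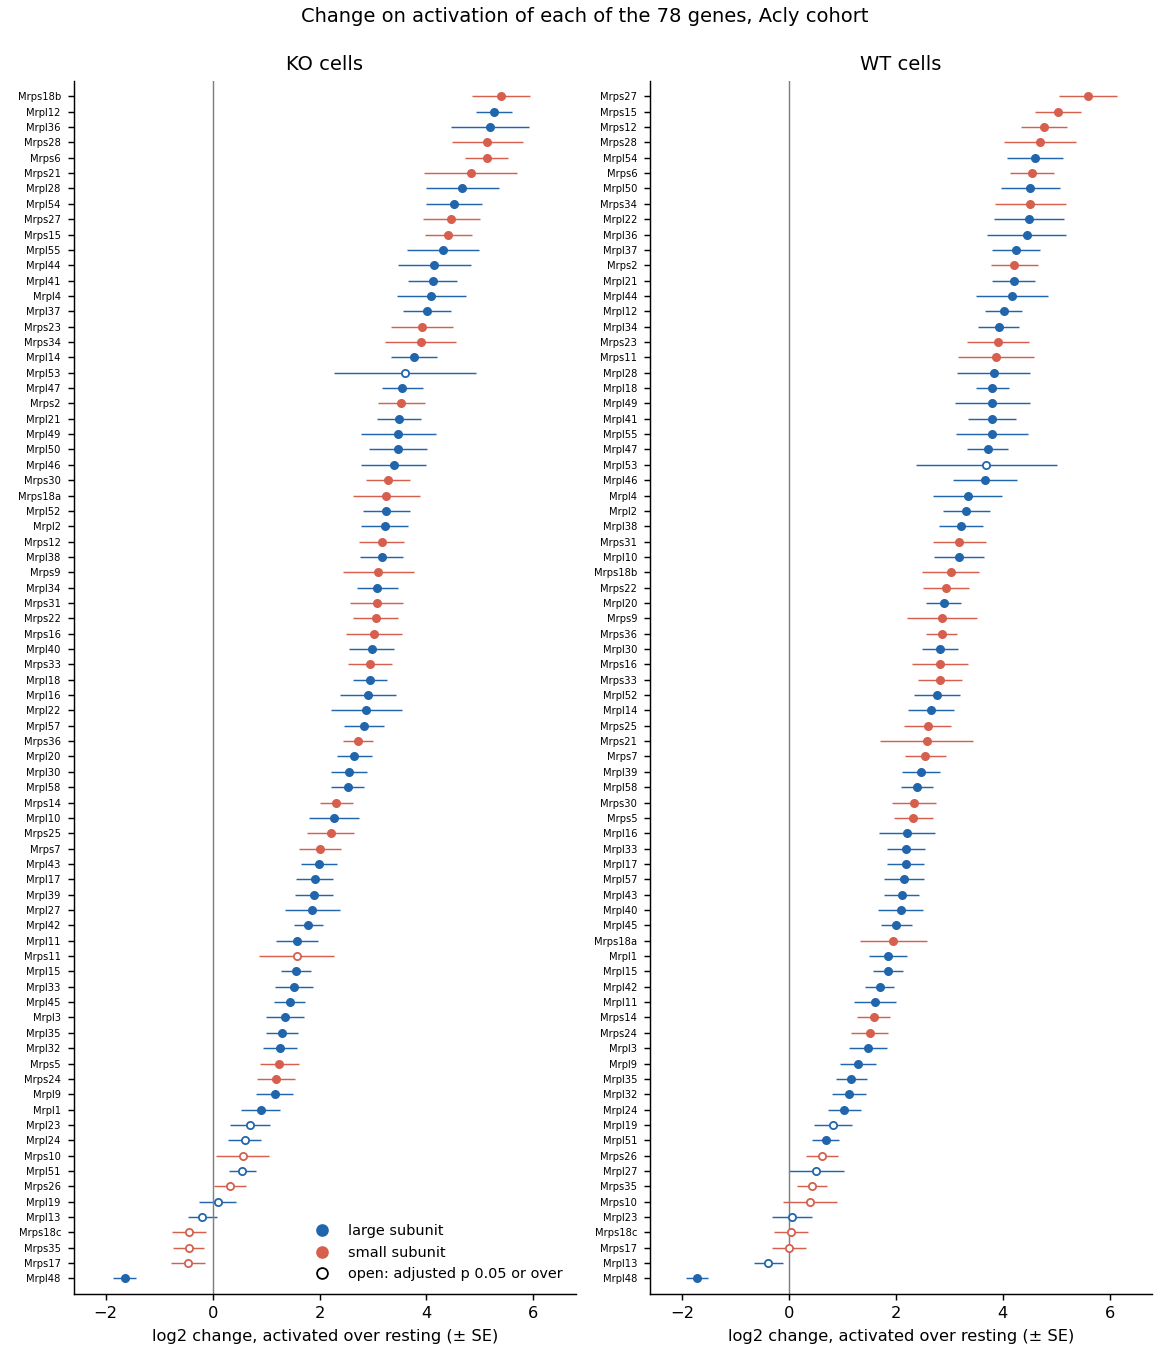
Log2 change, activated over resting, of each of the 78 genes in KO and WT cells of the Acly cohort, with standard errors; blue marks large and red small subunit genes, and open symbols did not pass the threshold. In both genotypes most genes lie well to the right of 0, a small set lies near 0, and Mrpl48 lies at -1.65 in KO and -1.71 in WT cells.

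The largest rises in KO cells were those of Mrps18b, Mrpl12, Mrpl36 and Mrps28. Mrps18b stood at 29.6, 31.9 and 33.3 RPM in KO activated cells, against 0, 0 and 1.26 RPM in KO resting cells. Its change was 5.40 ± 0.54 (adjusted p = 4.68e-11 by limma), and 106 against 1 count give a ratio of 75.0 with an exact 95% interval of 13.2 to 2991. Mrpl36, a zinc-binding protein of the large subunit, rose by 5.19 ± 0.73 (adjusted p = 6.88e-05 by limma), from 246 against 6 counts. Mrps28 had 33.4, 36.3 and 15.0 RPM in KO activated cells, against 0, 0 and 1.26 RPM in KO resting cells, so its fold rests on a single resting count. Counts of this size in the resting groups leave the folds wide, whatever the p-value.

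In WT cells the largest rises were all in the small subunit: Mrps27, Mrps15, Mrps12 and Mrps28. Mrps27, a pentatricopeptide repeat protein, stood at 45.1, 78.3 and 51.4 RPM in WT activated cells, against 1.16, 0 and 1.49 RPM in WT resting cells. The groups were far apart: the change was 5.60 ± 0.54 (adjusted p = 1.40e-10 by limma), and 201 against 2 counts give a ratio of 59.2 (exact 95% interval 16.2 to 492). Mrps15 stood at 79.5, 75.8 and 62.1 RPM in WT activated cells, against 1.16, 2.82 and 1.49 RPM in WT resting cells. Mrps12, at the decoding centre, stood at 54.2, 51.7 and 44.3 RPM in WT activated cells, against 1.16, 1.41 and 1.49 RPM in WT resting cells. Mrps15 rose by 5.03 ± 0.44 and Mrps12 by 4.77 ± 0.42 (adjusted p = 1.29e-12 and 2.75e-12 by limma). Both held few resting counts, 4 and 3 over the 3 libraries.

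The stalk of the large subunit recruits translation factors and is made of Mrpl10, Mrpl11 and several copies of Mrpl12, which in human cells also binds the mitochondrial RNA polymerase. All 3 genes rose in both genotypes. Mrpl12 stood at 98.9, 92.8 and 78.7 RPM in KO activated cells, against 1.14, 2.13 and 2.52 RPM in KO resting cells. In WT cells it stood at 136, 121 and 111 RPM when activated, against 6.96, 5.64 and 8.94 RPM at rest. The Mrpl12 change was 5.26 ± 0.34 in KO and 4.02 ± 0.34 in WT cells (adjusted p = 3.63e-16 and 9.68e-13 by limma). Mrpl10 rose by 2.27 ± 0.47 and 3.18 ± 0.47, and Mrpl11, with the smallest rise of the 3, by 1.58 ± 0.39 and 1.62 ± 0.39.

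The 3 Mrps18 paralogs descend from 1 bacterial protein and now occupy different places, Mrps18a in the large subunit and Mrps18b and Mrps18c in the small subunit. Mrps18a stood at 14.4, 14.1 and 15.0 RPM in KO activated cells and 19.0, 17.4 and 15.0 RPM in WT activated cells. Resting levels were 1.14, 4.26 and 0 RPM in KO and 4.64, 1.41 and 8.94 RPM in WT cells, and it rose by 3.25 ± 0.62 in KO and 1.96 ± 0.62 in WT cells. The WT call (adjusted p = 0.00975 by limma) was lost with a pseudocount of 0.1 (0.107) and without WT resting 2 (0.0839). Mrps18b rose in both genotypes, by 5.40 ± 0.54 in KO and 3.03 ± 0.54 in WT cells. Mrps18c differed from the other 2 in that activated and resting values overlapped, with 41.8, 21.2 and 32.2 RPM in KO activated against 45.9, 39.5 and 39.2 RPM in KO resting cells. In WT cells Mrps18c stood at 26.0, 37.3 and 43.4 RPM when activated and 29.1, 26.8 and 49.3 RPM at rest, a change of 0.04 ± 0.32 (adjusted p = 0.925 by limma), and its sign in either genotype turned with the scaling.

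**Figure D3:**
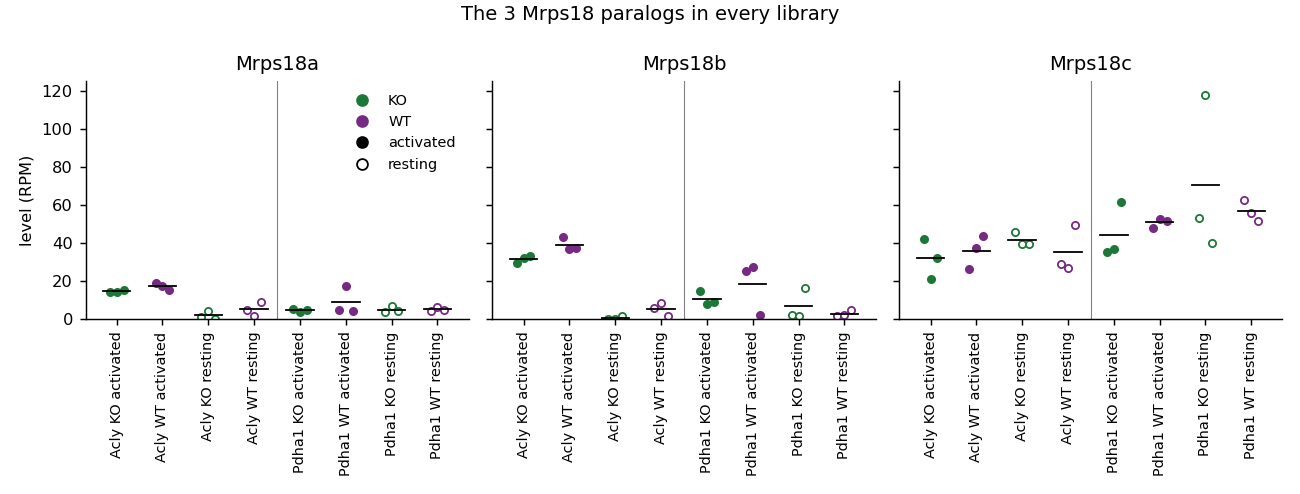
Level of Mrps18a, Mrps18b and Mrps18c in every library (RPM), by group, with group means as bars; green marks KO and purple WT cells, filled symbols activated and open symbols resting cells. In the Acly cohort activated Mrps18a and Mrps18b libraries lie above resting ones, while Mrps18c libraries of both states share the range from 21.2 to 49.3 RPM.

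Mrpl23, Mrpl24 and Mrpl45 lie around the exit tunnel. Mrpl45, which ties the ribosome to the inner membrane, rose by 1.44 ± 0.29 in KO and 2.01 ± 0.29 in WT cells (adjusted p = 7.37e-05 and 2.35e-07 by limma). Mrpl24 rose in WT cells by 1.04 ± 0.31 (adjusted p = 0.00659 by limma), a call lost under quantile normalization (0.0830) and without WT activated 2 (0.0559), and its change in KO cells was 0.60 ± 0.31 (0.111). In KO cells Mrpl24 passed the threshold under TMM-style scaling (1.25, adjusted p = 0.00107), with edgeR (1.16, 0.000314) and with DESeq2 (1.16, 0.00680). Mrpl23 stood at 28.1, 23.9 and 32.2 RPM in KO activated cells, against 21.7, 11.7 and 18.9 RPM in KO resting cells, a change of 0.70 ± 0.37 that did not pass the test (adjusted p = 0.112 by limma). It passed under TMM-style scaling (1.35, adjusted p = 0.00151), with edgeR (1.23, 0.000363) and with DESeq2 (1.23, 0.00680). The processed pseudogene Mrpl23-ps1 was listed at 18.1 to 45.6 RPM in the Acly cohort, so reads of the pair may be split between them and the Mrpl23 values are uncertain.

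Of the proteins of early assembly and of the subunit cores, all 6 that were followed rose in both genotypes. In the large subunit Mrpl3 rose by 1.36 ± 0.36 in KO and 1.48 ± 0.36 in WT cells, and Mrpl44, which has the fold of a ribonuclease, by 4.15 ± 0.68 and 4.18 ± 0.68. The Mrpl44 change rests on 2 resting counts in each genotype. In the small subunit Mrps7 rose by 2.01 and 2.55, Mrps12 by 3.16 and 4.77, Mrps22 by 3.05 and 2.94 and Mrps16 by 3.01 and 2.83 in KO and WT cells. Mrpl58, a peptidyl-tRNA hydrolase that frees stalled chains, stood at 152, 116 and 108 RPM in KO activated cells and 120, 132 and 118 RPM in WT activated cells, against 27.5, 18.1 and 18.9 RPM and 22.1, 41.0 and 13.4 RPM at rest. Mrps36 rose by 2.72 ± 0.29 in KO and 2.86 ± 0.29 in WT cells, and its 3 annotated pseudogenes did not exceed 2.14 RPM in any library of the Acly cohort.

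The calls were shared between genotypes: 64 members rose in both. In the fit as reported Mrpl27 was called higher in KO cells alone, and Mrpl24, Mrpl51 and Mrps11 in WT cells alone, but TMM-style scaling, edgeR and DESeq2 each called Mrpl24, Mrpl51 and Mrps11 higher in KO cells too. None of these differences between genotypes was called by the interaction test, and Mrpl27, Mrpl51 and Mrps11 were chosen after their values were seen. Mrps11 stood at 6.04, 4.41 and 3.21 RPM in KO activated cells, against 1.14, 1.06 and 1.26 RPM in KO resting cells, a change of 1.57 ± 0.71 (adjusted p = 0.0630 by limma). In WT cells it stood at 17.0, 6.32 and 10.6 RPM when activated, against 1.16, 0 and 0 RPM at rest, a change of 3.88 ± 0.71 (adjusted p = 1.97e-05 by limma). Mrps11 overlaps Mrpl46 on the opposite strand, so the reads of the 2 genes may not be told apart.

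In the fit as reported Mrpl13, Mrpl19, Mrpl23, Mrpl48, Mrpl53, Mrps10, Mrps17, Mrps18c, Mrps26 and Mrps35, 10 members in all, were called higher in neither genotype. Of these, TMM-style scaling, edgeR and DESeq2 each called Mrpl53 and Mrps26 higher in both genotypes, Mrpl23 in KO cells and Mrpl19 and Mrps35 in WT cells, while none of the 3 called Mrpl13, Mrpl48, Mrps17 or Mrps18c higher. Mrps10 was called in KO cells by TMM-style scaling and edgeR, and Mrpl19 by edgeR. Mrpl53 and Mrpl13 are described here because of their values. Mrpl53 missed the threshold with large changes, 3.60 ± 1.32 in KO and 3.69 ± 1.32 in WT cells (adjusted p = 0.0526 and 0.0501 by limma). Mrpl13, a protein of the large subunit core, stood at 67.9, 62.2 and 86.3 RPM in KO activated cells and 55.2, 71.8 and 78.3 RPM in WT activated cells, against 73.7, 67.5 and 111 RPM and 87.8, 65.2 and 120 RPM at rest. Its groups overlapped, with changes of -0.20 ± 0.27 and -0.38 ± 0.27. Under quantile normalization Mrpl13 was called lower in both genotypes, and Mrps17, Mrps18c and Mrps35 in KO cells.

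Mrpl48, a protein of the central protuberance of the large subunit, was the single member called lower in the fit as reported. It stood at 203, 210 and 312 RPM in KO activated cells and 155, 204 and 268 RPM in WT activated cells, against 643, 796 and 803 RPM in KO resting cells and 624, 659 and 731 RPM in WT resting cells. Activated and resting libraries did not overlap, and the change was -1.65 ± 0.21 in KO and -1.71 ± 0.21 in WT cells (adjusted p = 2.04e-08 and 8.26e-09 by limma). The summed receptor genes fell by 1.63 and 1.55 on the log2 scale in the same comparisons. With the background as a covariate the Mrpl48 change was 0.56 in KO and 0.38 in WT cells. Its annotated pseudogene Mrpl48-ps did not exceed 3.21 RPM in any library. Mrpl48 overlaps Gm44648, Cox20b and Rab6a on the opposite strand, so its reads and theirs may not be told apart.

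**Figure D4:**
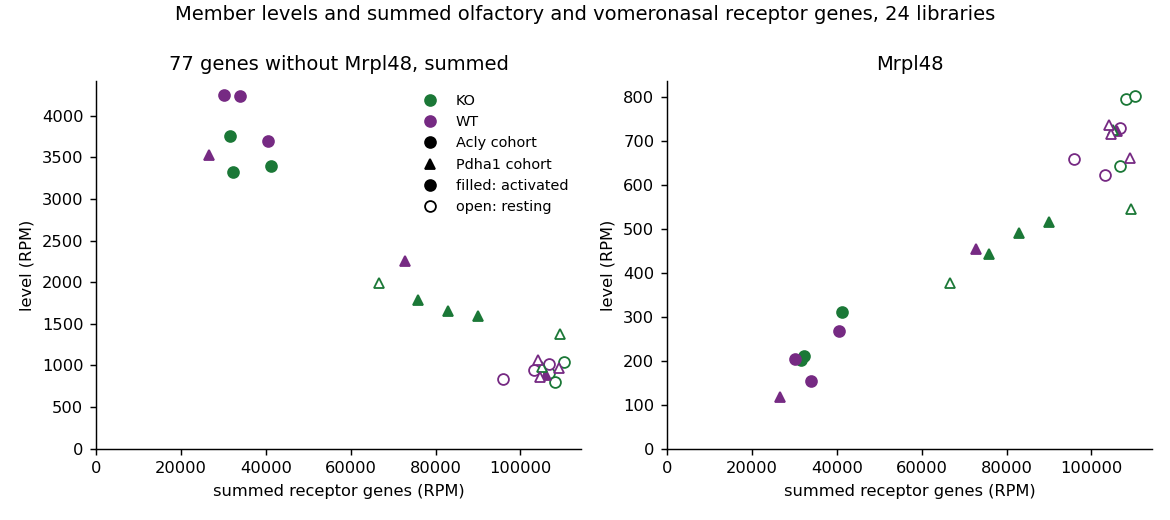
Summed level of the 77 other members (left) and of Mrpl48 (right), in RPM, against the summed receptor genes in each of the 24 libraries; circles mark the Acly and triangles the Pdha1 cohort, filled symbols activated and open symbols resting cells. The summed members lie between 3318 and 4243 RPM in the activated Acly libraries and between 804 and 1047 RPM in the resting ones, and Mrpl48 runs the other way, from 117 RPM in the library with the lowest background to 803 RPM.

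Annotated exon length went with the size of the change. Over the 78 members the Spearman correlation of exon length with the log2 change was -0.58 in KO and -0.56 in WT cells, and that of exon length with resting RPM was 0.51 and 0.49. These are descriptions across genes, which share the same libraries, and the correlation of resting RPM with the change (-0.85 and -0.84) shares the resting values on both sides. In WT cells the members called higher had a median exon length of 2114 bases, and the others 5450 bases. Per kb of exon, the WT activated level had a median of 18.6 RPM for the 67 members called higher and 8.62 RPM for the other 11, and the WT resting level medians of 2.41 and 6.89 RPM. These sets were split by the change between the same libraries, so their levels are a description and no test. Levels per kb take reads as spread along the exons, and which part of each transcript was read is not known. In activated Acly libraries the median receptor gene stood at 0.755 to 1.07 RPM and none of the 78 members lay under it; in resting ones it stood at 2.13 to 3.43 RPM, and 14 to 27 members lay under it. The part of background in the resting values of single members was not tested.

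Genes that act with the mitochondrial ribosome moved in the same comparison, in lists chosen with earlier results of these data known. For the lists here and below, the share over all genes tested was 20.7% higher and 26.7% lower in KO cells. In WT cells it was 21.4% and 23.8%. Dap3, Ptcd3, Chchd1, Aurkaip1 and Gadd45gip1 code for proteins of the mitochondrial ribosome under other symbols, and Oxa1l for a membrane protein that binds it. All 6 genes rose in both genotypes, with medians of 1.89 in KO and 1.96 in WT cells. Aurkaip1 rose most, by 3.99 ± 0.40 and 3.71 ± 0.40. Of 25 assembly and rRNA modification factors 11 rose and 3 fell in KO cells, and 13 rose and 2 fell in WT cells. Mrm3, a methyltransferase for the large rRNA, rose by 2.99 ± 0.60 and 3.38 ± 0.60, while Mterf3, which binds mitochondrial DNA and aids ribosome assembly, fell by 1.31 and 1.34 on the log2 scale.

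Of 14 translation factors and mRNA-binding proteins 9 rose and 1 fell in each genotype. The elongation factors Tufm and Gfm1 rose by 4.21 ± 0.61 and 4.12 ± 0.54 in KO cells and by 4.95 ± 0.61 and 4.92 ± 0.54 in WT cells, and Slirp, which stabilises mitochondrial mRNA, by 3.35 ± 0.29 and 3.30 ± 0.29. Guf1, a back-translocase, was the factor that fell, by 1.20 in KO and 1.01 in WT cells on the log2 scale. Of 7 genes for transcription of the mitochondrial genome 3 rose in KO and 4 in WT cells, among them Tfam (2.40 and 3.03) and the RNA polymerase Polrmt (3.38 and 3.29). Of 8 nuclear transcription factors and coactivators known for mitochondrial genes, 5 rose and 1 fell in KO cells, and 6 rose and 1 fell in WT cells. Myc rose by 3.85 ± 0.42 and 4.38 ± 0.42, Pprc1 by 4.10 ± 0.72 and 4.80 ± 0.72, Yy1 by 1.65 ± 0.38 and 1.70 ± 0.38 and Gabpa by 1.08 ± 0.44 and 1.91 ± 0.44, while Ppargc1a fell and Nrf1 changed by -0.13 ± 0.28 and -0.23 ± 0.28, short of the threshold.

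Other ribosomal genes give the scale of these changes. Of 91 cytosolic ribosomal protein genes tested 88 rose in KO and 87 in WT cells, with median changes of 2.77 and 2.41. The 13 protein genes of the mitochondrial genome, which the mitochondrial ribosome translates, rose less on this scale: 10 passed the test in KO and 9 in WT cells, with medians of 1.28 and 1.00. Summed, those 13 genes were at 2.47 times the resting level in KO and 2.10 times in WT cells.

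Between Acly KO and WT activated cells no member was called, at a background of 0.00639% of genes called lower and 0% called higher. The median change, KO over WT, was -0.25 over the 78 members, -0.30 for the large and -0.16 for the small subunit, against -0.05 over all genes and 0.06 over the cytosolic ribosomal proteins. For 23 members all 3 KO values lay under all 3 WT values, and for 2 above, against 7.38% and 3.56% of all genes. At an unadjusted p under 0.05 limma gave 2 members lower and none higher, edgeR 6 lower and 3 higher, and DESeq2 1 lower and 2 higher, and none of the 3 tools called a member after adjustment. Among all 31311 genes limma gave 669 lower and 418 higher at that unadjusted p. The 7 T cell markers summed to 1152 to 1229 RPM in KO and 1321 to 1645 RPM in WT activated cells, with a median change of -0.42, and their part in the members' values was not tested.

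Mrpl34, Mrpl1 and Mrpl18, all of the large subunit, had the smallest p-values. Mrpl34 stood at 80.3, 78.4 and 84.2 RPM in KO activated cells, against 143, 156 and 134 RPM in WT activated cells. The groups did not overlap, and the change was -0.83 ± 0.38 (adjusted p = 1 by limma over all genes), while a fit of the activated libraries alone called it lower (0.0173), where 0.158% of genes were called lower and 0.0180% higher. Mrpl1 stood at 31.9, 18.6 and 20.4 RPM in KO against 41.1, 35.7 and 38.9 RPM in WT activated cells. Mrpl18 stood at 62.5, 80.2 and 71.1 RPM in KO against 117, 116 and 94.5 RPM in WT activated cells, again with no overlap. The 2 members whose KO values were all higher, Mrpl54 and Mrpl23, were chosen after their values were seen: Mrpl54 stood at 71.8, 64.9 and 59.2 RPM in KO against 42.1, 34.1 and 26.5 RPM in WT activated cells, a change of 0.94 ± 0.52 (adjusted p = 1 by limma). Mrpl23 changed by 0.66 ± 0.37, with the doubt over its pseudogene stated above.

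**Figure D5:**
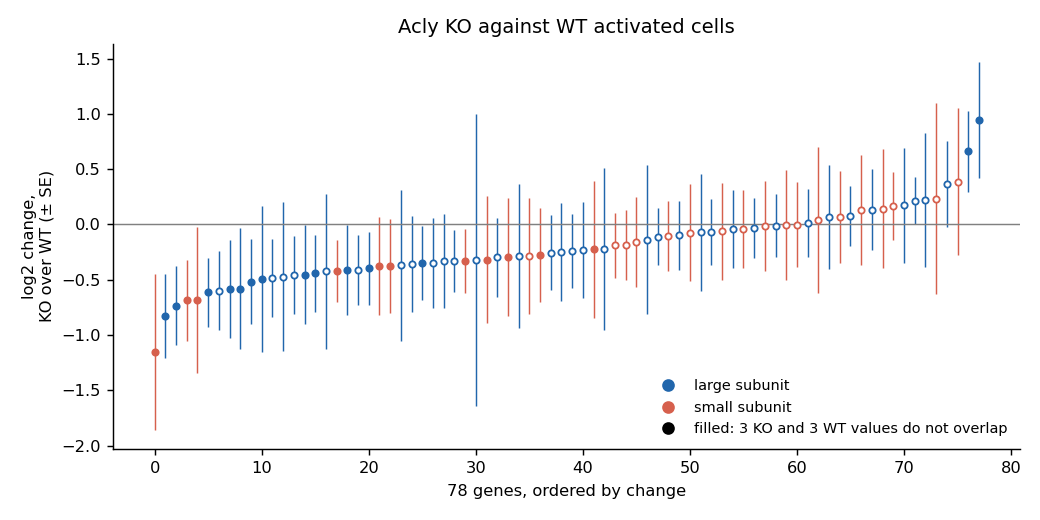
Log2 change, KO over WT, of each of the 78 genes in activated cells of the Acly cohort, ordered by size, with standard errors; blue marks large and red small subunit genes, and filled symbols mark genes whose KO and WT values do not overlap. The medians are -0.30 for large and -0.16 for small subunit genes, and no gene passed the threshold.

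At rest no member was called between KO and WT cells of the Acly cohort either, where 0% of all genes were called. At an unadjusted p under 0.05 limma gave 3 members higher and 8 lower, edgeR 2 higher and 5 lower and DESeq2 3 lower, and neither tool called one. Among all 31311 genes limma gave 841 higher and 904 lower at that unadjusted p. KO values lay wholly above WT values for 1 member and wholly below for 8, against 3.33% and 3.74% of all genes. Mrps18b was at 0, 0 and 1.26 RPM in KO resting cells, against 5.80, 8.46 and 1.49 RPM in WT resting cells, which is 1 against 12 counts, a ratio of 0.0730 (exact 95% interval 0.00171 to 0.493). Its change was -2.67 ± 0.54 (adjusted p = 0.0744 by limma). Mrpl12 had 5 against 16 counts and a change of -1.68 ± 0.34, with the same adjusted p of 0.0744 by limma. Both passed the threshold with no filter on low values, where 0.0257% of genes were called lower and 0.0140% higher, without KO resting 3 and without WT resting 3. Mrpl14, of the large subunit core, had 5 against 13 counts and a change of -1.47 ± 0.43 (adjusted p = 0.481 by limma).

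The interaction of genotype and activation asks whether activation changed a gene by a different amount in KO than in WT cells. No member was called, nor any of the 31311 genes (0%), and edgeR and DESeq2 called no member. At an unadjusted p under 0.05 limma gave 2 members with a larger and 4 with a smaller change in KO cells. Over all genes limma gave 527 and 786, while for members edgeR gave 3 and 3, and DESeq2 2 and 0. The smallest p-values were those of Mrps18b (2.37 ± 0.76), Mrps12 (-1.61 ± 0.60) and Mrpl12 (1.24 ± 0.49), each with an adjusted p of 1.00 by limma. In each of these the genotypes differed in counts that were few at rest.

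In the Pdha1 cohort the labelled groups did not separate by the test. With all 12 libraries, no member and none of 30357 genes (0%) was called on activation in KO or in WT cells. The median change of members was 0.67 in KO cells, with 0.50 for large and 0.96 for small subunit genes, and 1.50 in WT cells, with 1.37 and 1.64. At an unadjusted p under 0.05 limma gave 1 member higher in KO and 33 higher in WT cells, and edgeR called none in either after adjustment. Among all 30357 genes limma gave 539 higher and 334 lower in KO cells, and 2346 and 1969 in WT cells, at that unadjusted p. DESeq2 called 27 members higher in WT cells, against 6.26% of all genes, and none in KO cells. Activated values lay wholly above resting ones for 1 member in KO cells and wholly below for 0, against 3.47% and 4.54% of all genes. In WT cells 16 members lay wholly above and 2 wholly below, against 5.87% and 10.3%. Summed without Mrpl48, the members reached 1781, 1659 and 1591 RPM in KO activated cells and 3523, 2258 and 886 RPM in WT activated cells. At rest they summed to 980, 1373 and 1988 RPM in KO and 976, 858 and 1067 RPM in WT cells, so that WT activated 3 fell within the resting range and KO resting 3 above all KO activated libraries.

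KO resting 3 and WT activated 3 were picked partly by their member levels. Fits without them therefore favour a rise of the members by that choice, and their calls and p-values are no separate test of it. Leaving out these 2 libraries brought the changes of both genotypes nearer to those of the Acly cohort. Then 22 members rose in KO cells, 13 of the large and 9 of the small subunit, against 7.00% of all genes, and 58 rose and 1 fell in WT cells, against 14.9% and 12.1%. The median change was 1.37 in KO and 2.33 in WT cells. Among the members called in WT cells, Mrps15 changed by 4.60 ± 0.84 and Mrps12 by 4.49 ± 0.81 (adjusted p = 0.000700 and 0.000598 by limma), and Mrpl48 fell by 1.61 on the log2 scale (0.0206). Without WT activated 1 as well, 24 members rose in KO cells (8.22% of all genes) and 30 in WT cells (7.34%), with medians of 1.37 and 1.99, where WT activated 2 stands alone and is assumed to vary like the other groups, and Mrpl48 changed by -0.64 ± 0.21 (adjusted p = 0.0665 by limma). Receptor genes moved with these libraries too: those of the remaining activated libraries summed to 75859 to 89905 RPM in KO cells and to 26547 and 72700 RPM in WT cells, against 105159 and 109203 RPM in KO resting and 104105 to 109051 RPM in WT resting cells.

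Between Pdha1 KO and WT cells no member was called when activated or at rest, and no gene among 30357 (0%), while Pdha1 itself had overlapping values in the labelled genotypes. Over the members the median KO over WT change was -0.03 when activated and 0.56 at rest with all libraries, and -0.85 and 0.11 without the 2 libraries. Without all 3 it was -0.51 and 0.11, and no member was called in any of these fits. In activated cells 16 members were lower and 1 higher at an unadjusted p under 0.05 without the 2 libraries. How many of all genes reached that p in the same fit is not given here, so these counts have no share to stand against. After adjustment that fit called 1 of 29032 genes higher and 1 lower. At an unadjusted p under 0.05 limma with all libraries gave no member in activated cells and 3 higher at rest, edgeR none and 4 higher, and DESeq2 none and 10 higher, and none of the tools called a member. Over all 30357 genes that limma fit gave 745 higher and 111 lower in activated cells, and 397 and 239 at rest. No member had KO and WT values that did not overlap in activated cells, where 3.99% of all genes lay higher and 1.74% lower, and 4 lay higher at rest, where 3.89% lay higher and 3.57% lower. The smallest p-values in activated cells were those of Mrpl23 (-0.62 ± 0.45), Mrpl3 (-0.69 ± 0.56) and Mrps25 (-0.96 ± 0.81), each with an adjusted p of 1 by limma. At rest they were those of Mrpl44 (2.05 ± 0.86), Mrps27 (1.93 ± 0.83) and Mrpl38 (2.13 ± 0.98), again with an adjusted p of 1 by limma. Mrps27 stood at 5.86, 3.38 and 17.2 RPM in KO resting cells, against 2.03, 1.04 and 1.50 RPM in WT resting cells, and the highest of these was KO resting 3. Erythroid markers summed to 4908 to 6831 RPM in KO and 6230 to 29827 RPM in WT activated cells, and to 595 to 27364 and 2792 to 32756 RPM in KO and WT resting cells. Their part in these values was not tested.

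The interaction of genotype and activation in the Pdha1 cohort gave no called member (0% of genes), with a median of -0.66, and Mrpl44 (-3.04 ± 1.22), Mrps36 (-1.45 ± 0.83) and Mrpl42 (-1.08 ± 0.66) had the smallest p-values. At an unadjusted p under 0.05 limma gave 1 member lower, where 183 of all 30357 genes were lower and 518 higher. With edgeR 5 members were lower at that p and with DESeq2 11, and neither tool called one. The median depended on the fit: it was -1.54 with edgeR, -1.93 with DESeq2 and 0.06 with the background covariate, and -0.82 without 2 and -0.55 without 3 libraries. Without 2 libraries 13 members were lower at an unadjusted p under 0.05 and none was called, where 2 of 29032 genes were called higher and 0 lower. How many of all genes reached that unadjusted p is not given here. Activation of WT cells differed between the Acly and the Pdha1 cohort by a median of 1.11 over the members, 0.06 over the cytosolic ribosomal proteins and -0.53 over the mitochondrial genome proteins. No member was called in this difference, where 16 of 35290 genes were, 0.0453%. At an unadjusted p under 0.05 limma gave 8 members higher, where 1575 of all genes were higher and 1326 lower. With edgeR 11 members were higher at that p, and none was called. Mrpl45 had the smallest p, with a difference of 1.89 ± 0.49 (adjusted p = 0.163 by limma). It passed the threshold under TMM-style scaling (0.0187), with DESeq2 (0.00106), with the background covariate (0.0339) and without Pdha1 WT activated 1 (0.0241). The median difference was 0.30 without the 2 libraries named above, 0.60 without all 3 and 0.25 with the background covariate, and no member was called in the first 2 of these fits. The cohorts differ in every library, so cohort and anything that goes with it cannot be told apart.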

How the data were processed

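RNA of mouse CD4 T cells was sequenced in 24 libraries, 8 groups of 3, from total RNA with a strand-marking kit against ribosomal and globin RNA, per the labels' protocols. The authors deposited 1 table of RPM (reads scaled to a library total of 1000000). The submitters' processing notes name GRCm38 and mm10; no aligner, counter or annotation is given in the sources used here. To within 0.01 all deposited values become whole counts once a formula for chance sharing of 4096 tags of 6 bases is inverted, although the labelled protocol names no such tags, so which part of each transcript was read is not known. Recovered counts were 388902 to 1087675 per library; floors and intervals cover counting error only.

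GENCODE M21 matched 46206 identifiers, and 775 stayed without a symbol. Members and lists were chosen with earlier results of these data known. Each cohort was fitted by itself, and all 24 libraries together for the difference between cohorts, with limma 3.58.1 in R 4.3.3 (mean-variance trend, robust) on log2(RPM + 0.5). The pseudocount understates changes of low genes. Genes reaching 1 RPM in 3 or more libraries were kept, with Benjamini-Hochberg adjustment over all genes tested. Values after ± are standard errors of log2 changes unless SD is given. Intervals of count ratios are exact 95% binomial intervals, scaled by recovered counts. Named members are the 4 largest rises and falls per activation contrast past the threshold whose higher group averaged 3 RPM or more, with 1 direction in all 9 pairs of libraries; the 3 smallest p-values per other contrast; and members of set roles. Alternatives were other pseudocounts, filters and scalings, edgeR 4.0.16 and DESeq2 1.42.0 on recovered counts, a replicate block and leaving out each library; a background covariate and leaving out 2 or 3 Pdha1 libraries were chosen after seeing the data. The fits were also run on simulated data in which few genes changed, none of them at low levels. Changes of genes with few resting counts were not covered. Replicates of a group differed by more than sampling noise in every pair.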

Additional observations from a re-analysis of the deposited data

How the results depend on the processing

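The 66 members called on activation in KO and 68 in WT cells of the Acly cohort numbered 65 to 66 and 66 to 69 when each library was left out in turn, and 0 in both with the background covariate. Of all 31311 genes the covariate fit called 1 higher and 0 lower in KO cells, and 10 higher and 1 lower in WT cells. Between KO and WT activated cells of that cohort 1 member, Mrpl34, was called in the fit of only those groups, and at rest 2 members were called with no filter; leaving out a library gave 0 to 2 at rest. In the Pdha1 cohort the count of 0 on activation in KO cells became 22 and 24 without 2 and 3 libraries. In WT cells the count of 0 became 27 with DESeq2 and 59 without 2 libraries. It was 0 to 43 when each library was left out, the highest without WT activated 3, a library picked partly by its member levels. The difference between cohorts gave 1 member under TMM-style scaling, 2 with DESeq2, 1 with the background covariate and 0 to 2 when each library was left out. Over all genes 101 were called higher and 1 lower of 35290 under TMM-style scaling. With DESeq2 these were 191 and 46 of 35286, and with the covariate 170 and 24 of 35290. Calls over all genes are not given here for fits leaving out 1 library, so their member counts have no share to stand against.

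The large minus small median was -1.04 with the background covariate in WT cells of the Acly cohort and -0.59 with a pseudocount of 0.1 in WT cells of the Pdha1 cohort. When each library was left out it ran from -0.39 to -0.10 in KO and from -0.58 to -0.14 in WT cells of the Pdha1 cohort, and from -0.28 to 0.13 in WT cells of the Acly cohort. Signs turned with the background covariate for Mrpl48 (0.56 in KO, 0.38 in WT cells) and Mrpl11 (-0.23 in KO, -0.10 in WT cells). Mrps18c turned in KO cells to 0.22 under TMM-style scaling, 0.17 with edgeR, 0.15 with DESeq2 and 0.70 with the covariate, and in WT cells to -0.39 under quantile normalization. Mrpl23 turned to -0.074 under quantile normalization in WT cells. Leaving out each library in WT cells gave Mrps18c changes from -0.12 to 0.31 and Mrpl23 changes from -0.13 to 0.44. The causes were not tested.

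Replicate numbers are shared between groups, but deviations of same-numbered libraries correlated at 0.04 to 0.20 in the Acly cohort and -0.46 to 0.45 in the Pdha1 cohort, not above 0.1 in every pair, so the numbers were not taken as a pairing. With the replicate number as a block, 68 members were called in KO and 71 in WT cells of the Acly cohort, and the other counts stayed at 0. Of all 31311 genes the block fit called 6625 higher and 8852 lower in KO cells, and 6866 and 8006 in WT cells. Depth limits resting cells most, where 30 members in KO and 23 in WT cells of the Acly cohort held 9 counts or fewer over 3 libraries. Across members named by the set rules, 1117 checks kept direction and call, 36 kept direction but lost the call, 18 gained it and 17 changed sign. Among those that changed sign, Mrpl48 and Mrpl11 with the background covariate lost the call too. Members described because of their values, such as Mrpl13, Mrpl27, Mrpl51, Mrpl53 and Mrps11, lay outside this tally, and their calls also changed with the fit.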
